A study of Mus musculus with 4 samples.

Results

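The genes described here are 33 genes of autophagy and of the lysosome, a fixed list found by symbol among the 27998 genes of a single-cell RNA-seq study of mouse pancreas at embryonic day 15.5. All 33 were present. They are 19 genes of the lysosome (4 membrane proteins, 9 proteases and protective partners, and 6 cofactors, transfer proteins and hydrolases) and 14 genes of autophagy and its control (Mtor, Rptor, Rps6kb1 and Tfeb, then Ulk1, Becn1, Atg5, Atg7, 5 genes of the LC3 and GABARAP family, and Sqstm1). The control library came from OGTflox/flox embryos, whose Ogt gene carries loxP sites, and its cells were sorted on E-cadherin GFP. The library labelled knockout came from PdxCre;OGTflox/flox;CAG GFP embryos, in which Cre driven by the Pdx promoter acts in the pancreatic lineage, and its cells were sorted on endogenous GFP. Both carry the floxed alleles. Each genotype is 1 library of 2 sequencing runs, the number of embryos is not given, and genotype and sort cannot be told apart. With 1 library per genotype no difference has a replicate check, and no test was made. Intervals are 95% exact Poisson intervals for levels and exact conditional intervals for ratios, and cover counting error only.

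Autophagy wraps cytoplasm in a double membrane and delivers it to the lysosome, an acidic compartment filled with proteases and other hydrolases. The kinase complex mTORC1 (Mtor with Rptor) restrains both the initiating kinase Ulk1 and the transcription factor Tfeb, which drives many lysosomal genes through the motif CACGTG, and LC3 and GABARAP proteins are attached to the growing membrane. Macrophages are rich in lysosomes, and in acinar cells, which make digestive enzymes, cathepsin B can activate trypsinogen and cathepsin L can degrade it. OGT is the enzyme that adds O-GlcNAc to nuclear and cytoplasmic proteins.

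Promoters are shown because Tfeb is a member and its motif is known. RefSeq promoters (GRCm38.p6, 250 bases before to 50 after each start) matched 29 of the 33 genes. The motif CACGTG, which reads the same on both strands, was present in 8 of the 29 (27.6%), against 8.09% of 27025 genes with a promoter and 8.91% of 17491 protein-coding genes. It was present in 6 of 17 lysosome genes (Ctsa, Ctsd, Ctsl, Gaa, Lamp1 and Lgmn) and in 2 of 12 autophagy genes (Atg5 and Atg7). The longer form TCACGTGA, which contains CACGTG, was present in Ctsa and Ctsd (6.90%, against 1.12% of all genes). The longest form searched for, of 10 bases, contains TCACGTGA. It was present in 0 of the 29 genes, against 0.370% of all genes. Among other genes of the autophagy and lysosome lists it was present in 4 of 121. In Lamp1 CACGTG occurred 4 times, beginning 61, 45, 28 and 15 bases before the start. In Ctsd it began 245 and 98 bases before the start, and in Ctsa 12 bases before it, with another copy just after the start. Ctss, the cathepsin with the widest range of levels below, had none in the window. Such matches describe letters and not bound sites. The 100 bases before the start are printed 5′ to 3′ on the gene's strand, with capitals marking CACGTG: Lamp1 at chr8:13159061-13159160 (plus strand), Ctsd at chr7:142387828-142387927 (minus strand), Ctsa at chr2:164833673-164833772 (plus strand) and Ctss at chr3:95526686-95526785 (plus strand).
Lamp1: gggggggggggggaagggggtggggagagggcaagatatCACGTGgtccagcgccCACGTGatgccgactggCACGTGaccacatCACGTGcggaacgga
Ctsd: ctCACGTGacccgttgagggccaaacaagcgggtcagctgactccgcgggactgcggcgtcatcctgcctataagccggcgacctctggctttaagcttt
Ctsa: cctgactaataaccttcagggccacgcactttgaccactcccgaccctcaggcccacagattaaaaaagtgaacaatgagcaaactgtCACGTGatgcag
Ctss: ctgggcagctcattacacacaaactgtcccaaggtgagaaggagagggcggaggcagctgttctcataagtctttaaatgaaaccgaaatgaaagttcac

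The control file held 941 barcodes with 11973979 UMIs (median 10756 per barcode), and the knockout file 617 barcodes with 11064540 UMIs (median 15367), with 0 barcodes in common. After filters and doublet removal 921 and 553 cells remained. The label of pancreatic epithelial cells went against the control data: 75.2% of its kept cells fell into leukocyte-like classes, against 13.6% in the knockout. These classes leave out a dividing Lyve1-positive cluster (94 control cells and 1 knockout cell) and unnamed cells. Ogt itself did not separate the libraries in every class. Its level, in UMIs per 1000000 UMIs of the class (CPM), was 38.2 in knockout and 37.1 in control acinar-like cells (ratio 1.03, 0.727 to 1.47), 38.5 and 86.7 in trunk/ductal-like cells (0.444, 0.308 to 0.650), and 29.5 and 123 in endocrine-like cells (0.241, 0.125 to 0.463). In leukocyte-like cells, outside the Pdx lineage, the ratio was 0.724 (0.543 to 0.949). The deleted exons are not given, and a tag at the transcript's end may lie outside them, so Ogt counts may not check the deletion. "Knockout" below means the library so labelled.

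Cell classes were built without the 185 genes of the autophagy and lysosome lists, the 33 included. Genes outside these lists were not left out. Each level is the gene's UMIs over all UMIs of a class, in CPM, so it does not depend on how many cells the class has. Throughout, "higher" and "lower" mean a ratio of CPM of at least 1.5 with at least 20 UMIs over both sums, and "between" means a smaller ratio. A gene with fewer UMIs is called not measured. The control supplied 10 cell groups and the knockout 8, and all 33 genes were read in all 18 groups.

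Of the 33 genes, 24 were highest in a macrophage or monocyte group. Among the 19 lysosome genes this held for 17, and among the 14 autophagy genes for 7. In 24 of the 33 the intervals of the highest and next group overlapped, so the order of those neighbours is not set by their intervals alone, and in 9 they were apart. The ratio of the highest to the lowest group had a median of 18.4 over 18 lysosome genes (3.41 to 164) and 4.39 over 12 autophagy genes (1.75 to 33.7). The map of levels by cell group shows the macrophage and monocyte columns as the brightest for most lysosome rows.

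**Figure D1:**
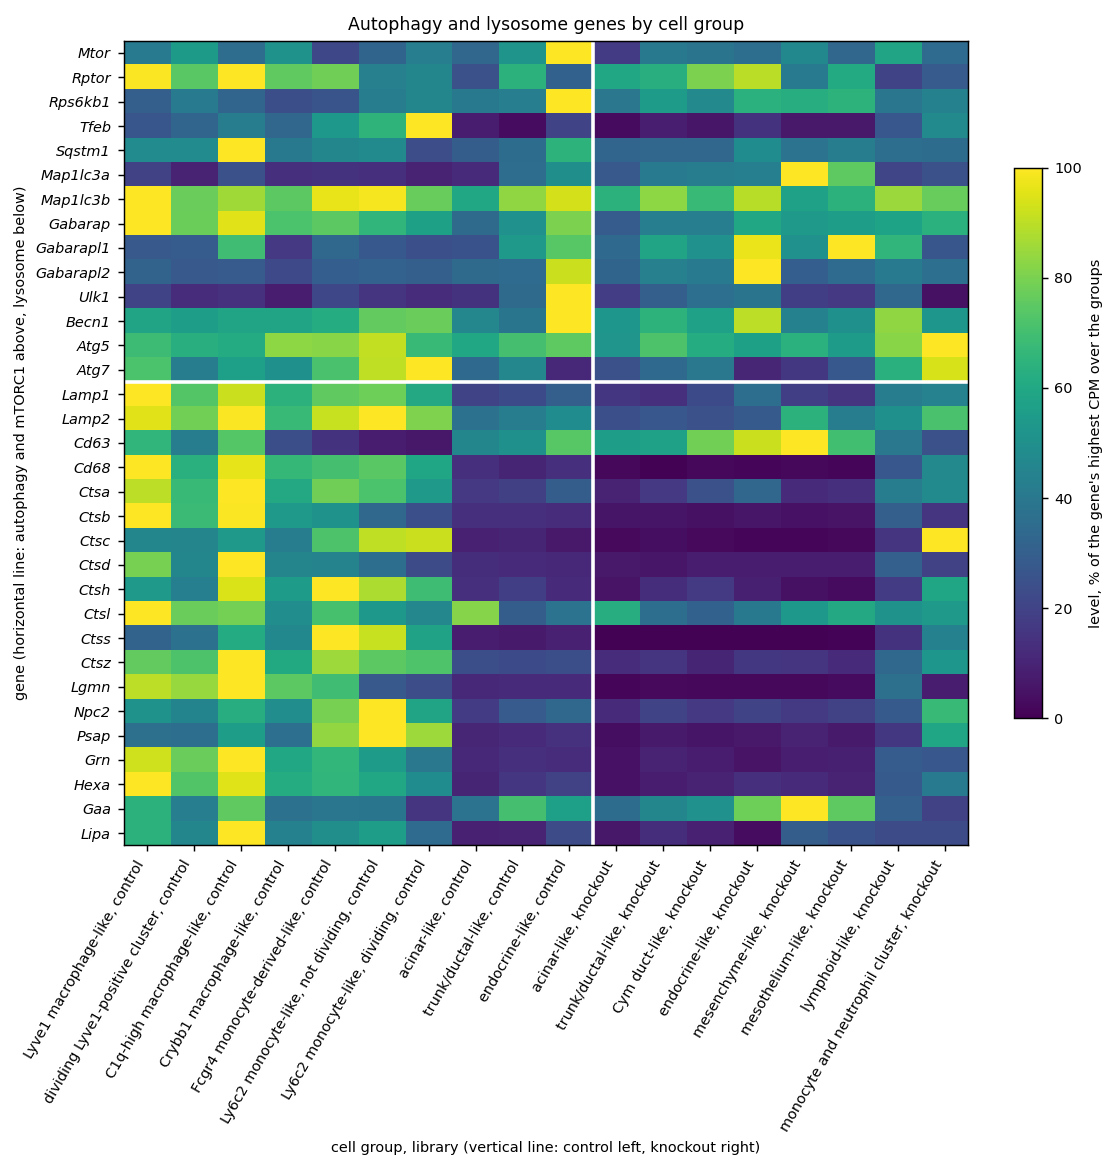
Level of each of the 33 genes (rows) in the 18 cell groups (columns), as a percentage of the gene's CPM in its highest group. Most lysosome rows are brightest in the control macrophage and monocyte columns, whereas Map1lc3a and Cd63 peak in mesenchyme-like cells and Gabarapl2 and Becn1 in endocrine-like cells.

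Among membrane proteins, Lamp1, the most abundant glycoprotein of the lysosomal membrane, was highest in Lyve1 macrophage-like cells at 1572 CPM and in C1q-high macrophage-like cells at 1445 CPM. Cd68, a macrophage member of the same family, reached 475 CPM in Lyve1 macrophage-like cells and 10.2 CPM in knockout acinar-like cells. Cd63, a tetraspanin of late endosomes, was ordered differently. It was highest in mesenchyme-like cells at 1024 CPM and in knockout endocrine-like cells at 943 CPM, and lowest in dividing Ly6c2 monocyte-like cells at 65.5 CPM.

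The proteases were divided among the myeloid groups. Ctsb, encoding cathepsin B, was at 4600.4 CPM in Lyve1 and 4582 CPM in C1q-high macrophage-like cells, whose intervals overlapped, and lowest in the knockout's Cym duct-like cells at 212 CPM. Ctsd, the aspartic cathepsin, was highest in C1q-high macrophage-like cells at 2869 CPM, as was Lgmn, the asparaginyl endopeptidase that processes cathepsins, at 2031 CPM. For Ctsd 5 of the 90 C1q-high cells held 26.9% of the UMIs. Its median cell was at 2085 CPM there and at 1982 CPM in Lyve1 macrophage-like cells. Ctsb, Ctsd and Lgmn were thus high in tissue macrophage groups.

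Other proteases were high in monocyte groups. Ctss, the cathepsin of antigen presentation, was highest in Fcgr4 monocyte-derived-like cells at 2339 CPM, a class whose name is weak (below). Non-dividing Ly6c2 monocyte-like cells came next at 2139 CPM. Ctss was lowest in knockout trunk/ductal-like cells at 14.2 CPM (12 UMIs), a ratio of 164 to the highest group. Ctsc, which activates granule serine proteases, was at 2371 CPM in the knockout's monocyte and neutrophil cluster and at 2182 CPM in dividing Ly6c2 monocyte-like cells, with overlapping intervals. Ctsl, encoding cathepsin L, was highest in Lyve1 macrophage-like cells at 475 CPM, with control acinar-like cells next at 388 CPM. C1q-high macrophage-like cells were close, at 376 CPM (338 to 417). That interval holds the acinar-like level, so the second place is not resolved.

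Among cofactors and hydrolases, Psap, the precursor of the saposins, was highest in non-dividing Ly6c2 monocyte-like cells at 3522 CPM, and so was Npc2, the cholesterol-transfer protein, at 1592 CPM. Grn, encoding progranulin, was highest in C1q-high macrophage-like cells at 1152 CPM, and so was Lipa, the acid lipase, at 179 CPM. Hexa, a subunit of hexosaminidase, was highest in Lyve1 macrophage-like cells at 824 CPM. Gaa, the acid glucosidase that breaks down glycogen, was highest outside the leukocytes, in mesenchyme-like cells at 83.0 CPM.

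The autophagy genes had narrower ranges. Map1lc3b, the widely used LC3 marker gene, varied by a ratio of 1.75 over all 18 groups, from 196 CPM in mesenchyme-like to 344 CPM in Lyve1 macrophage-like cells. Its relative Map1lc3a was at 316 CPM in mesenchyme-like and 237 CPM in mesothelium-like cells, with intervals apart, and at 30.7 CPM in dividing Ly6c2 monocyte-like cells. Gabarapl2 was highest in endocrine-like cells of both libraries, at 477 CPM in knockout and 438 CPM in control. Becn1, a subunit of the lipid kinase that starts the membrane, was also highest there, at 84.4 and 93.5 CPM. Gabarap was highest in Lyve1 macrophage-like cells at 1077 CPM, and Sqstm1, the cargo receptor p62, in C1q-high macrophage-like cells at 217 CPM. Tfeb was highest in dividing Ly6c2 monocyte-like cells at 57.5 CPM and lowest in knockout acinar-like cells at 1.70 CPM (5 UMIs). Mtor and Ulk1 were highest in control endocrine-like cells, from only 4 and 10 UMIs.

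Summed per cell, the 19 lysosome genes had a median of 18862 CPM in Lyve1 macrophage-like cells (11088 to 30285) and of 21214 in C1q-high macrophage-like cells (11160 to 41683). Control acinar-like cells had a median of 4347 (2652 to 6451) and knockout acinar-like cells 2409 (1164 to 4693). No acinar-like cell of either library therefore reached the lowest of these macrophage-like cells. The 14 autophagy genes had medians of 1981 in Lyve1 macrophage-like cells, 978 in control and 1012 in knockout acinar-like cells, and 2258 and 1942 in control and knockout endocrine-like cells. In the knockout's lymphoid-like cluster 9 of 27 cells had a lysosome sum above the lowest Lyve1 macrophage-like cell, up to 29298, and the other 18 were at or below 9858. Its class sums therefore mix cells of unlike lysosome content.

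**Figure D2:**
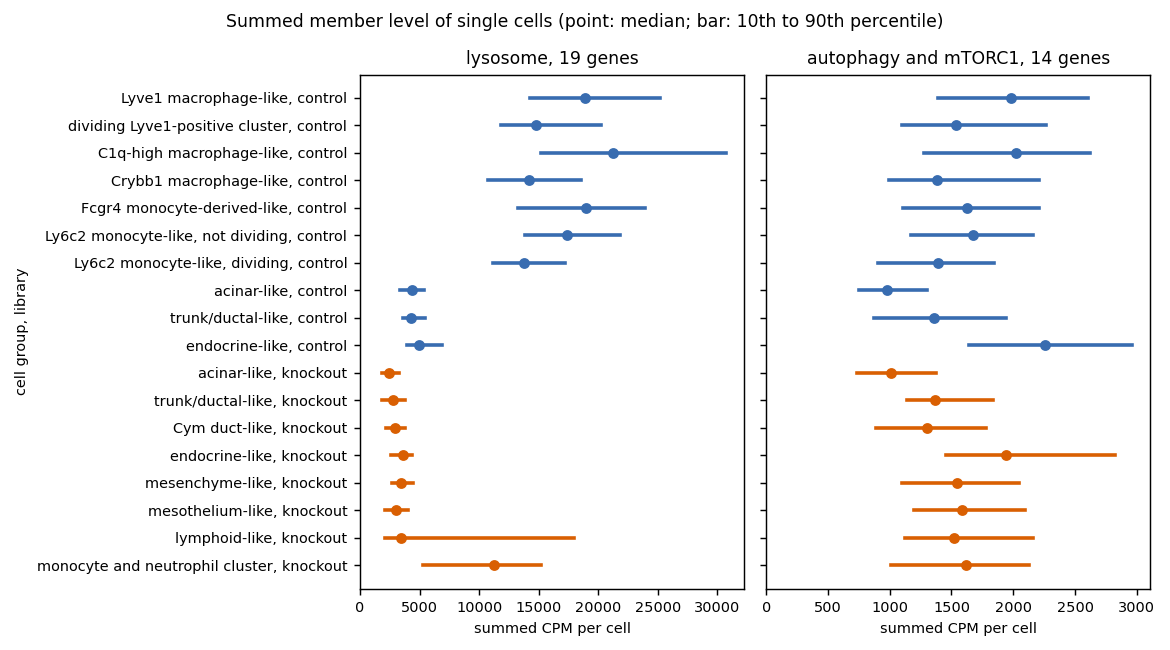
Sum of the 19 lysosome genes and of the 14 autophagy genes in each cell, in CPM of the cell's own total, by cell group, control in blue and knockout in orange, as the median (point) and the 10th to 90th percentile of cells (bar). The medians of the lysosome sums of macrophage and monocyte groups lie to the right of those of all pancreatic and mesenchymal groups, while control endocrine-like cells have the highest autophagy median, 2258.

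Within the control library, macrophage-like cells (302 cells of 3 groups) were set against the 50 acinar-like cells. Of the 33 genes, 25 were higher in macrophages, 0 lower and 8 between, where 35.3% of all 9747 measured genes were higher and 26% lower. The median log2 ratio was 1.64 for the 33 genes and 0.13 for all genes. Lysosome genes made up 17 of the 25, with a median log2 ratio of 2.36 over the 19, and autophagy genes 8, with 0.64 over the 14.

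Hexa had the highest ratio, at 770 CPM in macrophages and 84.3 CPM in acinar-like cells (9.13, 7.54 to 11.2). Lgmn followed with 8.27 (7.34 to 9.33), Lipa with 7.98 (5.15 to 13.04), Grn with 7.94 (6.80 to 9.31) and Ctsb with 7.03 (6.55 to 7.56). Lamp1 was at 1459 and 325 CPM (4.49, 4.06 to 4.97). Ctsl stood apart from the other 8 proteases, all higher, with 412 and 388 CPM (1.06, 0.957 to 1.18). Tfeb was at 18.5 and 4.64 CPM (3.98, 1.72 to 11.3), from 58 and 6 UMIs. Of the LC3 and GABARAP genes, Gabarap was at 1022 and 370 CPM (2.76, 2.50 to 3.04) and Gabarapl2 at 141 and 165 CPM (0.859, 0.728 to 1.02).

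Leukocyte markers were present in the control's acinar-like cells, and these values bear on the ratio of macrophages to acinar-like cells above and on the ratios between the libraries below. The 15 leukocyte and macrophage markers summed to 2739 CPM there, with none at 0. They stood at 9.82% to 21.2% (median 14.8%) of their level in the control's 781 myeloid cells, the dividing Lyve1-positive cluster included. In knockout acinar-like cells they summed to 363 CPM and stood at 0.427% to 9.21% (median 1.91%). The highest share there was that of Mertk, a marker at only 37.0 CPM in the myeloid cells. Control trunk/ductal-like and endocrine-like cells held 2663 and 2822 CPM of these markers, with Mertk at 0 in the latter, against 330 and 363 CPM in the knockout. Of the 33 genes, 10 stood within the markers' range of shares in control acinar-like cells (Tfeb, Cd68, Ctsc, Ctsh, Ctss, Lgmn, Psap, Grn, Hexa and Lipa) and 23 stood above it, Ctsb and Ctsa only just, at 21.8% and 22.1%. The part of these markers' source in the genotype ratios was not tested.

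**Figure D3:**
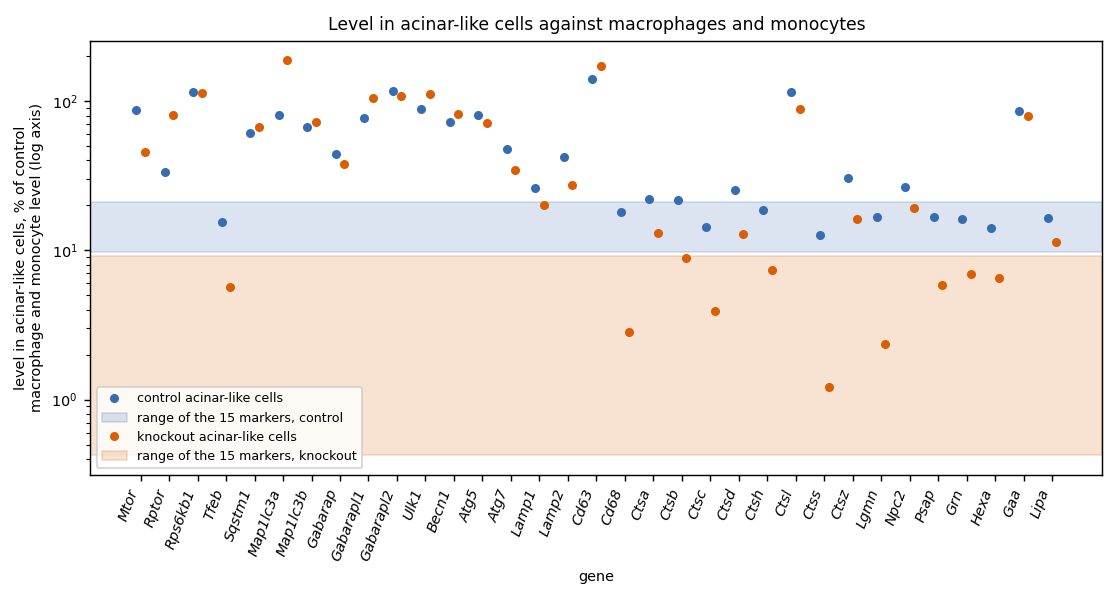
Level of each of the 33 genes in acinar-like cells as a percentage of its level in control macrophages and monocytes (log axis), with points for each library and bands for the range of the 15 leukocyte and macrophage markers. The band lies at 9.82% to 21.2% in control and at 0.427% to 9.21% in knockout, and 10 genes fall within each library's own band. Mertk sets the upper edge in knockout, where the median of the markers is 1.91%, so the 2 counts of 10 are not alike.

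Depth-matched cells gave the same order. Thinned to 5000 UMIs per cell, Ctss had a UMI in 97.3% of 148 Lyve1 macrophage-like cells, 68.8% of 48 control acinar-like cells and 8.602% of 93 knockout acinar-like cells (99.4%, 92% and 41.9% unthinned). Lgmn had one in 100%, 68.8% and 17.2% (100%, 88% and 60.2%). Cd68 had one in 86.5%, 29.2% and 6.45% (93.2%, 76% and 31.2%). Ctss and Lgmn were thus found in most control acinar-like cells and not in a few. The median depths before thinning were 9577.5, 23318 and 31391 UMIs.

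Of the 152 other genes on the autophagy and lysosome lists, 144 were measured between macrophages and acinar-like cells, and 106 were higher and 6 lower. All 16 measured subunits of the proton pump that acidifies the lysosome were higher, and so were 26 of 27 glycosidases and other hydrolases. Mitf, a relative of Tfeb, had 74 UMIs against 1 (30.5, 5.30 to 1220). Slc17a5, the sialic acid exporter, had a ratio of 8.65, and Vps18, of the fusion machinery, 8.31. The lower genes included Laptm4b (0.206) and the mTORC1 inhibitor subunit Akt1s1 (0.660).

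Monocytes and macrophages of the control library differed in which lysosome genes were high. Against the 162 Lyve1 macrophage-like cells, the 220 Ly6c2 monocyte-like cells had 5 of the 33 genes higher and 12 lower, where 19.6% of all measured genes were higher and 21.1% lower. The higher genes were Tfeb, Psap, Ctss, Ctsc and Npc2. Tfeb was at 48.0 and 15.3 CPM (3.14, 2.06 to 4.93), Psap at 3246 and 1295 CPM (2.51, 2.39 to 2.63), and Ctss at 1722 and 745 CPM (2.31, 2.17 to 2.46). Ctsc had a ratio of 1.99 (1.89 to 2.09) and Npc2 of 1.52 (1.43 to 1.61).

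The lower genes were Cd63, Lgmn, Ctsb, Ctsd, Gaa, Rptor, Ctsl, Grn, Hexa, Map1lc3a, Gabarap and Cd68. Cd63 was at 72.4 CPM in monocyte-like and 674 CPM in Lyve1 macrophage-like cells (0.107, 0.0921 to 0.125), the lowest ratio. Lgmn was at 519 and 1825 CPM (0.284, 0.267 to 0.302), Ctsb at 1324 and 4600.4 CPM (0.288, 0.277 to 0.299) and Ctsd at 840 and 2279 CPM (0.369, 0.350 to 0.388). Proteases were thus found on both sides, 2 higher and 4 lower of 9. Among other listed genes 14 of 145 were higher, led by Gm2a, the GM2 activator (2.68), Sort1 (2.62) and Acp5 (2.43), and 43 lower, led by Wdfy3 (0.228), Sesn1 (0.228) and Ulk2 (0.245).

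**Figure D4:**
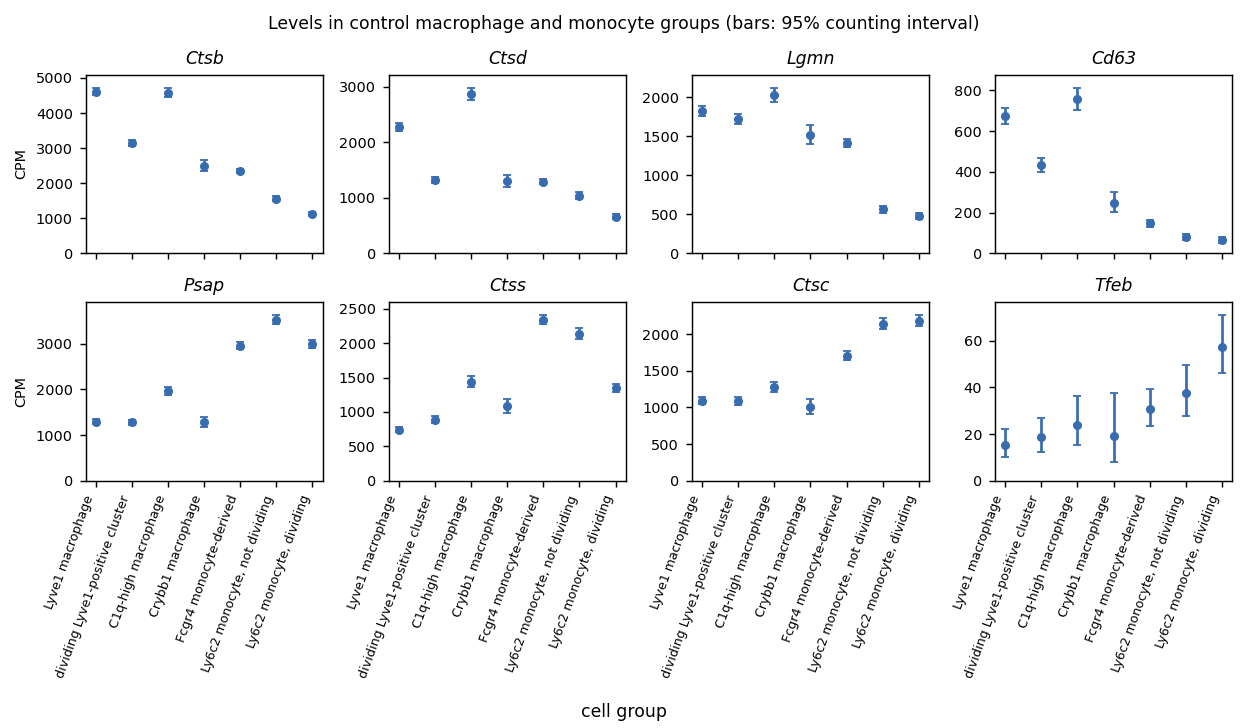
Levels in CPM (linear axes from 0) of 8 of the genes in the macrophage and monocyte groups of the control library, with 95% exact Poisson intervals. Psap is at 1295 CPM in Lyve1 macrophage-like and 3522 CPM in non-dividing Ly6c2 monocyte-like cells, while Ctsb is at 4600.4 and 1555 CPM in the same groups.

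Fcgr4 monocyte-derived-like cells (165 cells) lay between these for several genes. Against Ly6c2 monocyte-like cells 6 genes were higher and 3 lower (11.8% and 12.7% of all genes). Lgmn was at 1412 and 519 CPM (2.72, 2.55 to 2.90), Cd63 at 148 and 72.4 CPM (2.05, 1.71 to 2.46), Ctsb had a ratio of 1.77 and Ctsd of 1.53, each still below the Lyve1 macrophage-like level. Rptor (1.74) and Ulk1 (1.57) were also higher, on few UMIs, and Tfeb (0.636), Rps6kb1 (0.593) and Mtor (0.577) lower. Mtor had only 10 UMIs in the Fcgr4 class. The name of this class rests on 3 detected markers, with a mean score of 0.418 on the Fcgr4 list and of 0.606 on the macrophage list. An unnamed cluster with 20 control cells scored 0.769 on the Fcgr4 list, with 0 of its markers among the leading 10 genes. The Fcgr4 name is thus a weak one.

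C1q-high macrophage-like cells (90 cells) had 7 of the 33 genes higher than Lyve1 macrophage-like cells and 0 lower (9.5% and 12.4% of all genes). Gabarapl1 was at 49.2 and 19.9 CPM (2.48, 1.57 to 3.96) and Sqstm1 at 217 and 104 CPM (2.08, 1.69 to 2.55). Both lean on few cells: 5 of the 90 C1q-high cells held 38.3% of the Gabarapl1 and 34.3% of the Sqstm1 UMIs. The median cell had Sqstm1 at 138 CPM in C1q-high and 92.1 CPM in Lyve1 macrophage-like cells. The other higher genes were Ctss (1.93), Ctsh (1.74), Tfeb (1.57), Lipa (1.56) and Psap (1.52). Tfeb rests on 23 and 27 UMIs, and the intervals of its 2 levels overlapped.

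Dividing cells had lower levels of some lysosome genes. In the dividing Lyve1-positive cluster (94 cells, led by both haemoglobin and Lyve1-macrophage genes, so its type is not named) 7 genes were lower and 0 higher than in Lyve1 macrophage-like cells (11.2% and 11.8% of all genes). They were Map1lc3a (0.519), Ctsd (0.579), Atg7 (0.589), Ulk1 (0.617, 0.269 to 1.34), Cd68 (0.635), Cd63 (0.641) and Gaa (0.665). Ulk1 rests on 11 and 21 UMIs, and its log2 ratio turned to 1.27 when cells were thinned to 5000 UMIs. Dividing Ly6c2 monocyte-like cells (97 cells) had 6 genes lower and 1 higher than the 123 non-dividing ones (10.3% and 16.6% of all genes). Sqstm1 was at 51.4 and 103 CPM (0.501, 0.374 to 0.667) and Npc2 at 932 and 1592 CPM (0.585, 0.547 to 0.627). Gaa (0.394), Lipa (0.626), Ctss (0.631) and Ctsd (0.637) were lower and Tfeb (1.53, 1.07 to 2.22) higher. Ctsd and Gaa were lower in both contrasts.

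Between the libraries, acinar-like cells of the library labelled knockout (93 cells) had lower levels of most lysosomal proteases than those of the control (50 cells), while LC3 and GABARAP genes were mostly between. Of 32 measured genes 2 were higher, 14 lower and 16 between, where 14.5% of all 9538 measured genes were higher and 13% lower. The median log2 ratio was -0.47 for the measured genes of the set and 0.03 for all genes. Of the 19 lysosome genes 13 were lower and 0 higher (median log2 ratio -0.98), and of 13 measured autophagy genes 2 were higher and 1 lower (0.11). Different clusters held the class: 47 of the 50 control cells lay in 1 cluster and all 93 knockout cells in another, which held the other 3 control cells.

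Among proteases, Ctss was at 18.1 CPM in knockout and 186 CPM in control (0.0970, 0.0706 to 0.131) and Lgmn at 31.7 and 223 CPM (0.142, 0.111 to 0.180). Ctsb was at 252 and 613 CPM (0.410, 0.371 to 0.454) and Ctsd at 193 and 380 CPM (0.507, 0.449 to 0.574). Ctsl, at 296 and 388 CPM (0.762, 0.681 to 0.852), was the only one of the 9 between. Of these, Ctss and Lgmn had the ratios nearest to those of the leukocyte markers, which were all at least 1.5-fold lower in knockout (15 of 15, ratio 0.0435 to 0.551, median 0.126).

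On the membrane, Lamp2, the receptor of chaperone-mediated autophagy, was at 62.1 and 95.1 CPM (0.652, 0.516 to 0.827) and Cd68 at 10.2 and 65.7 CPM (0.156, 0.0991 to 0.238). Lamp1 was between at 248.9 and 325 CPM (0.766, 0.679 to 0.866), and Cd63 at 575 and 469 CPM (1.22, 1.11 to 1.35). Psap was at 134 and 385 CPM (0.349, 0.305 to 0.399), and Grn (0.425) and Hexa (0.465) were also lower. Npc2 (0.716), Lipa (0.693) and Gaa (0.925) were between.

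Among autophagy genes, Map1lc3a was at 88.3 CPM in knockout and 37.9 CPM in control (2.33, 1.71 to 3.23), from 259 and 49 UMIs. After thinning it had a UMI in 38.7% of 93 and 10.4% of 48 cells (89.2% and 50% unthinned). Its ratio was opposite in direction to that of the leukocyte markers. Rptor was higher on 33 and 6 UMIs (2.43, 1.00 to 7.08) and Mtor lower on 12 and 10 UMIs (0.529, 0.210 to 1.37), so neither is resolved at this depth. Map1lc3b (1.082), Sqstm1 (1.10), Becn1 (1.13), Gabarapl2 (0.927) and Gabarap (0.851) were between. Tfeb was not measured, with 5 and 6 UMIs.

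**Figure D5:**
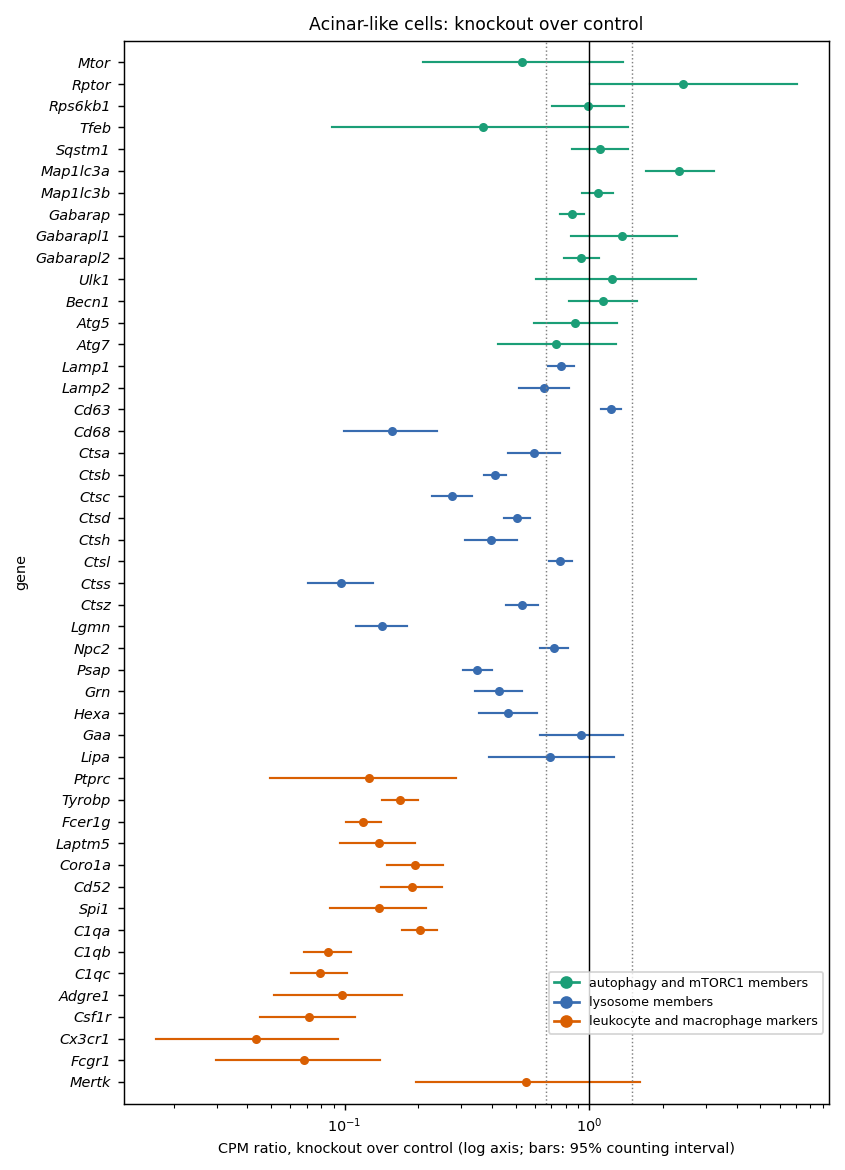
Ratio of CPM in knockout to control acinar-like cells for the 33 genes and the 15 leukocyte and macrophage markers (log axis), with 95% exact conditional intervals and dotted lines at 1.5-fold. All 15 marker points and 13 of the 19 lysosome points lie left of the lower line, and Map1lc3a lies right of the upper line with its whole interval.

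Subtracting from each library's acinar-like cells the median marker share of the myeloid level, a step chosen after the data were seen, left 25 measured genes, with 5 higher, 2 lower and 18 between and a median log2 ratio of 0.28. Ctsb was then at 198 CPM in knockout and 195 CPM in control, Ctsd at 164 and 157 CPM, and Ctsl at 289 and 338 CPM. Map1lc3a was at 87.4 and 30.9 CPM and Lamp1 at 225 and 141 CPM. Map1lc3a was higher in knockout acinar-like cells with and without this step, and Ctsb and Ctsd were lower only without it. In the other pancreatic classes, without the step, Map1lc3a was between. It was at 136 CPM in knockout and 158 CPM in control endocrine-like cells. In the trunk/ductal-like cluster with cells of both libraries it was at 129 and 113 CPM. The myeloid level subtracted was that of the control in both libraries, although their kinds of leukocyte differed. The source of the marker RNA was not tested, so these values do not sort the genes by cause. Cd68, Ctsc, Ctss, Grn, Hexa, Lipa and Rptor had no value left, because in 1 or both libraries the counting interval of the level reached the marker share.

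Of the 125 other listed genes measured in acinar-like cells 6 were higher and 29 lower. Sesn3, a stress-induced regulator upstream of mTORC1 (2.04, 51 and 11 UMIs), and Bnip3l, a mitophagy receptor (1.73), were among the higher, and Gm2a (0.323), the mannosidase Man2b1 (0.345) and the pump subunit Atp6v1b2 (0.521) among the lower.

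In trunk/ductal-like cells (131 knockout, 35 control) 1 of 32 measured genes was higher and 12 lower, where 20.2% of all genes were higher and 14.7% lower. All 12 were lysosome genes. Without the 5 cells of each library with most UMIs of each gene, 8 genes were higher and 8 lower. That step leaves out 5 of 35 control but 5 of 131 knockout cells, so by its construction it tends to lower the control more. Ctss was at 15.2 and 165 CPM (0.0922, 0.0615 to 0.136), Lgmn at 45.3 and 249.96 CPM (0.181, 0.140 to 0.235) and Ctsb at 226 and 623 CPM (0.363, 0.316 to 0.418). Cd63 was between at 735 and 516 CPM (1.42, 1.25 to 1.63), as were Ctsa (1.15), Ctsl (1.11) and Ctsh (0.842). The higher gene, Becn1, rests on 146 and 18 UMIs (1.53, 0.937 to 2.66), and its log2 ratio turned to -0.25 when cells were thinned to 3000 UMIs. Here 14 of the 15 leukocyte markers were lower in knockout. With the Cym duct-like cells left out, which had no control counterpart, 12 of 30 genes were lower and 1 higher (12.6% and 13.4% of all genes). Lamp1, at 210 and 351 CPM (0.598, 0.483 to 0.742), and Gaa were then among them, and Npc2 and Grn were not. Less the marker share, 9 of 28 genes were higher and 1 lower. Of 126 other listed genes 19 were higher and 29 lower, the latter led by the ceramidase Asah1 (0.508, 0.374 to 0.700). The higher were led by Nagpa (3.69, 1.38 to 13.9, 78 and 4 UMIs), Vps11 (2.36, 0.867 to 9.01) and Atg14 (2.00, 0.807 to 6.42). The intervals of Vps11 and Atg14, with 4 and 5 control UMIs, include 1.

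The Cym duct-like cells (89 cells) differed little from the other 42 trunk/ductal-like cells of the knockout in these genes. Lamp1 was higher at 353 and 210 CPM (1.68, 1.42 to 2.00), Cd68 higher on few UMIs (2.68, 0.776 to 14.3), and Ctsc lower at 55.6 and 85.4 CPM (0.651, 0.476 to 0.894). The other 29 measured genes were between, where 17.4% of all genes were higher and 11.5% lower.

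In endocrine-like cells (42 knockout, 20 control) 27 genes were measured, with 0 higher and 10 lower, where 23% of all genes were higher and 17.2% lower. The lower genes were Ctss (0.0802, 0.0380 to 0.158), Lgmn (0.172), Ctsc (0.258), Grn (0.423), Ctsb (0.472), Psap (0.487), Lamp2 (0.584), Npc2 (0.619), Ulk1 (0.385, 16 and 10 UMIs) and Rps6kb1 (0.637, 0.357 to 1.19, 45 and 17 UMIs). The log2 ratio of Rps6kb1 turned to 0.26 with each library clustered alone and to 0.34 without the 5 cells with most of its UMIs. The first setting put 62 control cells in the class in place of 20. The second left out 5 of 20 control and 5 of 42 knockout cells, a larger share of the control. Lamp1, at 569 and 473 CPM (1.203, 0.946 to 1.55), Cd63 (1.24) and Gabarapl2 (1.09) were between, and 13 of 15 leukocyte markers were lower. Less the marker share 4 of 22 genes were higher and 2 lower. Median depth was 16608 UMIs in knockout and 7576 in control. Of 87 other listed genes 15 were higher and 16 lower. The higher were led by Akt1s1 (2.24, 1.26 to 4.33), Ids (1.71, 0.814 to 4.16) and the pump subunit Atp6v1a (1.60, 0.791 to 3.68). The intervals of Ids and Atp6v1a, with 8 and 9 control UMIs, include 1.

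Leukocyte-like cells (75 knockout, 693 control) had 17 of 33 genes lower in knockout and 0 higher, where 17.8% of all genes were lower and 21.4% higher. Lgmn was at 483 and 1258 CPM (0.384, 0.353 to 0.417), Ctsb at 1061 and 2752 CPM (0.385, 0.364 to 0.407), Ctss at 629 and 1576 CPM (0.399, 0.371 to 0.429) and Grn at 325 and 793 CPM (0.410, 0.370 to 0.454). Map1lc3a, at 73.1 and 49.99 CPM (1.46, 1.15 to 1.84), was between. The kinds of leukocyte differed: S100a9, a neutrophil gene, was at 1880 CPM in knockout and 13.3 CPM in control, and 302 control but 2 knockout cells were Lyve1, C1q-high or Crybb1 macrophage-like. Genotype and kind of leukocyte cannot be told apart. Of 147 other listed genes 8 were higher and 56 lower, with the acid phosphatase Acp2 (0.238), Fnip2 (0.254) and Slc17a5 (0.267) lowest.

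Ogt and Lamp2 both lie on the X chromosome, and Xist, the RNA of the inactive X, had a ratio of 8.42 in acinar-like cells (618 and 73.5 CPM), 3.46 in trunk/ductal-like and 2.47 in endocrine-like cells. The part of this difference in the Ogt and Lamp2 ratios was not tested. Within the control, Lamp2 in cells with Xist against cells with Y-linked reads had a ratio of 0.790 (0.565 to 1.082) in Lyve1 macrophage-like cells, 0.9501 in Ly6c2 monocyte-like and 1.21 in Fcgr4 monocyte-derived-like cells. No direction was common to these 3 classes.

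Within the knockout library, where leukocyte markers summed to 361 CPM in mesenchyme-like and 363 CPM in acinar-like cells, 128 mesenchyme-like cells had 11 of 32 genes higher and 2 lower than the 93 acinar-like cells, where 37.7% of all genes were higher and 15.6% lower. The median log2 ratio was 0.28 for these genes and 0.29 for all genes, so their share was near the background. TMM scaling, which multiplies the ratios by 0.831, gave 8 higher and 3 lower, and DESeq2 size factors (0.815) 7 and 3.

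Map1lc3a was at 316 and 88.3 CPM (3.58, 3.08 to 4.18) and had a UMI in 71.9% of mesenchyme-like and 38.7% of acinar-like cells after thinning (94.5% and 89.2% unthinned). Lipa was at 52.7 and 11.3 CPM (4.69, 3.09 to 7.25), Gaa at 83.0 and 29.3 CPM (2.83, 2.14 to 3.76), Lamp2 at 162 and 62.1 CPM (2.61, 2.15 to 3.18) and Psap at 347 and 134 CPM (2.58, 2.26 to 2.95). Hexa (2.53), Gabarap (1.83), Cd63 (1.78) and Grn (1.76) were also higher, whereas 8 of 9 proteases were between and Ctsc was lower (0.611, 0.446 to 0.826). Of 132 other listed genes 52 were higher, led by Wipi1 (9.90), the collagen-degrading cathepsin Ctsk (9.05) and the mannose 6-phosphate receptor Igf2r (5.39), and 10 lower, among them Dnase2a (0.265), Acp5 (0.290) and the mTOR inhibitor Deptor (0.362).

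Mesothelium-like cells (65 cells) had 13 of 32 genes higher and 1 lower than acinar-like cells (36% and 14.2% of all genes). Lipa (4.01, 2.52 to 6.47), Gabarapl1 (2.94, 2.09 to 4.13) and Map1lc3a (2.69, 2.25 to 3.21) had the highest ratios, and Ctsh was lower (0.568). Endocrine-like cells (42 cells) had 15 of 31 higher and 3 lower (40.8% and 16.9%). Ctsa, the protective protein of galactosidase, was at 177 and 53.2 CPM (3.33, 2.61 to 4.24) and Gabarapl2 at 477 and 153 CPM (3.12, 2.70 to 3.60). Gabarapl1 (2.85), Hexa (2.83), Lamp1 (2.29), Ulk1 (2.13), Gabarap (2.04) and Becn1 (1.72) were also higher, and Ctsl was lower (0.652, 0.540 to 0.781). Ctsl was thus the only protease lower in endocrine-like than in acinar-like cells of the knockout.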

How the data were processed

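The deposited counts are whole UMIs per gene and barcode for 1 library per genotype, each joining 2 sequencing runs. Per the submitters' processing notes, Cell Ranger 2.0.0, Seurat 2.0 and DESeq2 1.14.1 were used with mm10. The sources used here give neither read length nor annotation release. Symbols were found for 27645 of 27998 Ensembl identifiers, and the 353 without one held 0.0274% of control and 0.0315% of knockout UMIs.

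Barcodes under 500 genes or over 10% mitochondrial UMIs were removed (16 control and 56 knockout), and Scrublet doublets removed per library (4 and 8). Both libraries were clustered together with scanpy 1.11.5 (2000 variable genes, 30 components, 15 neighbours, Leiden resolution 1 with leidenalg 0.10.2), without the genes of the 13 pathway lists. A cluster was named "-like" from its marker list, read in the library with most of its cells, where it had 3 or more detected markers (at least 50 CPM, and 0.25 of the top cluster's level), their mean score was at least 0.4, 1 or more was among the leading 10 genes and fewer than 2 markers of another type were. Differences from the study's own cell types may come from these rebuilt names. UMIs were summed per class, and intervals come from scipy 1.17.1. Named genes are the 33 members, Ogt, class markers and, per comparison, up to 3 other listed genes in each direction with the largest ratio of at least 1.5 and at least 50 UMIs in the higher sum. Alternative scalings used edgeR 4.0.16 (TMM) and DESeq2 1.42.0 (size factors) on the summed counts, with no test. The ratio steps were tested on simulated data. Members and lists were chosen with earlier results of these data known. Comparisons of C1q-high, Fcgr4, dividing Ly6c2, Cym, mesothelium-like and endocrine-like groups within a library, of cells with and without Xist, and the subtraction of the marker share were added after the data were seen.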

Additional observations from a re-analysis of the deposited data

How the results depend on the processing

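Each count of members past the 1.5-fold limit was recomputed under other filters, clusterings, scalings and depths. Of 145 such counts 132 stayed within 1.5 times their first value, among them all 18 of macrophages against acinar-like cells (19 to 28, first 25). Subtracting the marker share, an alternative chosen after the data were seen, gave 7 in place of 16 in acinar-like and 6 in place of 10 in endocrine-like cells. It turned the log2 ratio of knockout to control to 0.62 for Ctsa, 0.02 for Ctsb, 0.06 for Ctsd, 0.51 for Ctsh and 1.00 for Psap in acinar-like cells, to 0.50 for Ctsd, 1.13 for Psap, 1.19 for Grn and 0.71 for Hexa in trunk/ductal-like cells, and to 0.40 for Ctsb and 0.35 for Psap in endocrine-like cells. By its construction it lowers the control more. A 2-fold limit, which calls fewer genes by construction, gave 6 in trunk/ductal-like (first 13), 10 in leukocyte-like (17), 10 in monocyte-like (17), 0 in dividing Lyve1-positive (7) and 7 in mesenchyme-like cells (13). Clustering each library alone gave 17 in endocrine-like and 9 in leukocyte-like cells, Leiden resolution 0.6 gave 9 in leukocyte-like and 1.5 gave 4 in dividing Lyve1-positive cells, the mean of each cell's own CPM gave 4 in the latter, and thinning to 3000 UMIs gave 4 in endocrine-like cells. With each library clustered alone the endocrine-like class held 62 control cells in place of 20, so its values there compare other cells. The leukocyte-like class then held 49 knockout cells, and 48 at Leiden resolution 0.6, in place of 75. The cause of the changed counts was not tested. Thinning to 3000 UMIs turned Becn1 in trunk/ductal-like cells to -0.25 and Tfeb in leukocyte-like cells to 0.08, and thinning to 5000 turned Ulk1 in dividing Lyve1-positive cells to 1.27 and Atg7 in mesenchyme-like cells to 0.54. Rps6kb1 in endocrine-like cells turned to 0.26 with each library clustered alone and to 0.34 without the 5 cells with most UMIs of each gene. That last step gave 8 genes higher and 8 lower in trunk/ductal-like cells. It leaves out 5 cells per gene from each side whatever its size, and so a larger share of the smaller class. Map1lc3a in acinar-like cells stayed between 0.91 and 1.98 (log2) over 18 alternatives. A 5% mitochondrial limit gave no value for dividing Lyve1-positive cells or for acinar-like cells of the control, nor clustering alone for trunk/ductal-like cells. No paired analysis was possible because the files join the runs of each genotype under 1 set of barcodes. Depth limits Mtor, Rptor, Tfeb and Ulk1, which had at most 53 UMIs in each acinar-, trunk/ductal- and endocrine-like sum.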
